A study of Homo sapiens with 2 samples.

Results

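The genes described here encode tissue factor, its inhibitors, the receptors that sense clotting proteases, and the urokinase system of plasminogen activation. They are F3, TFPI, TFPI2, F2R, F2RL1, THBD, PLAU, PLAUR and SERPINE2. Members were every probe set that the array's annotation assigned to one of these genes and to no other, which gave 20 probe sets for 8 of the 9 genes, among 41091 probe sets for 19775 genes in all. F2RL1, the receptor PAR2, was not analysed here. The set was chosen by pathway with earlier log2 ratios of the same arrays known, among them the high ratios of F3 and PLAU, so all values here are a description.

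The cells were HT-29, a human line established from a colorectal adenocarcinoma, and their RNA was taken 72 h after they received a small interfering RNA (siRNA). The siIFITM1 sample received an siRNA against IFITM1, which encodes an interferon-induced membrane protein. The siLuc sample received an siRNA against firefly luciferase, which these cells lack, and was the baseline. Each siRNA was read on 1 array, so the spread between cultures is unknown and nothing was tested. All ratios are siIFITM1 over siLuc. In such bulk samples, fewer cells that express a gene and less RNA per cell cannot be told apart.

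Tissue factor is a membrane protein that binds factor VII and its active form and starts blood coagulation, and carcinoma cells can carry it on their surface. TFPI blocks the complex of tissue factor and factor VIIa. Thrombin, the protease made at the end of the cascade, signals to cells through F2R (PAR1) and is redirected to protein C activation when it binds thrombomodulin, the product of THBD. Urokinase (PLAU) bound to its receptor (PLAUR) turns plasminogen into plasmin, and SERPINE2 (protease nexin-1) inhibits urokinase, thrombin and plasmin.

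A probe set is a group of short probes read together, and its signal has no absolute unit. A probe set or gene passed the filter if its mean log2 signal over both arrays was at or above the median of all probe sets, which corresponds to a signal of 57.4 and is called the floor. Past the filter, brighter means a mean signal of 393 or more, the 75th percentile, and dimmer means anything under it. The probe set with the highest mean represented a gene. Within a gene, log2 ratios differed between probe sets with an SD that was 0.193 among brighter and 0.496 among dimmer probe sets, and it served as the yardstick for sizes. This yardstick covers disagreement between probe sets and no variation between cultures. Between the representing probe sets of different genes, the SD was 0.263 among brighter and 0.567 among dimmer genes.

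The arrays were alike in scale. The 18 hybridisation controls had a median log2 ratio of -0.07, the 24 poly-A controls had -0.11, and the 12225 genes past the filter had -0.02. The signal of IFITM1 was 237 on the siIFITM1 array and 640 on the siLuc array, a log2 ratio of -1.43. IFITM2 had -1.29 and IFITM3 -1.64. Each of these genes was read here by a single probe set, and its ID ending marks probes shared with other transcripts. Whether each probe set read its own gene alone was not tested. Of 11 markers of colorectal epithelium, such as EPCAM, CDH1 and KRT20, 10 were brighter, and their summed signal was 182351 with siIFITM1 and 179231 with siLuc. CDX2, an intestinal transcription factor, was the exception, with signals of 19.1 with siIFITM1 and 5.87 with siLuc, below the floor.

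F3 was the member that stood out. Its single probe set, 204363_at, had a signal of 1153 with siIFITM1 and 341 with siLuc, a 3.39-fold higher signal and a log2 ratio of 1.76. Only the siIFITM1 signal was above the level of 393. Of the 6 members past the filter, F3 alone was at least 2-fold higher and 0 were at least 2-fold lower. Over all genes past the filter, 1.01% were at least 2-fold higher and 2.01% were at least 2-fold lower. Among the 7793 brighter genes, to which F3 belongs by its mean signal, the shares were 0.18% and 0.0898%. That mean includes the high siIFITM1 signal, and the siLuc signal of 341 lies in the dimmer range. Among the 4432 dimmer genes, 2.48% were at least 2-fold higher and 5.39% at least 2-fold lower. By log2 ratio, F3 ranked 2 from the top of the brighter genes. The gene above it, CACNG4, had a log2 ratio of 2.38 at its representing probe set and -0.61 at another. No second probe set of F3 was there to set beside the first.

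**Figure D1:**
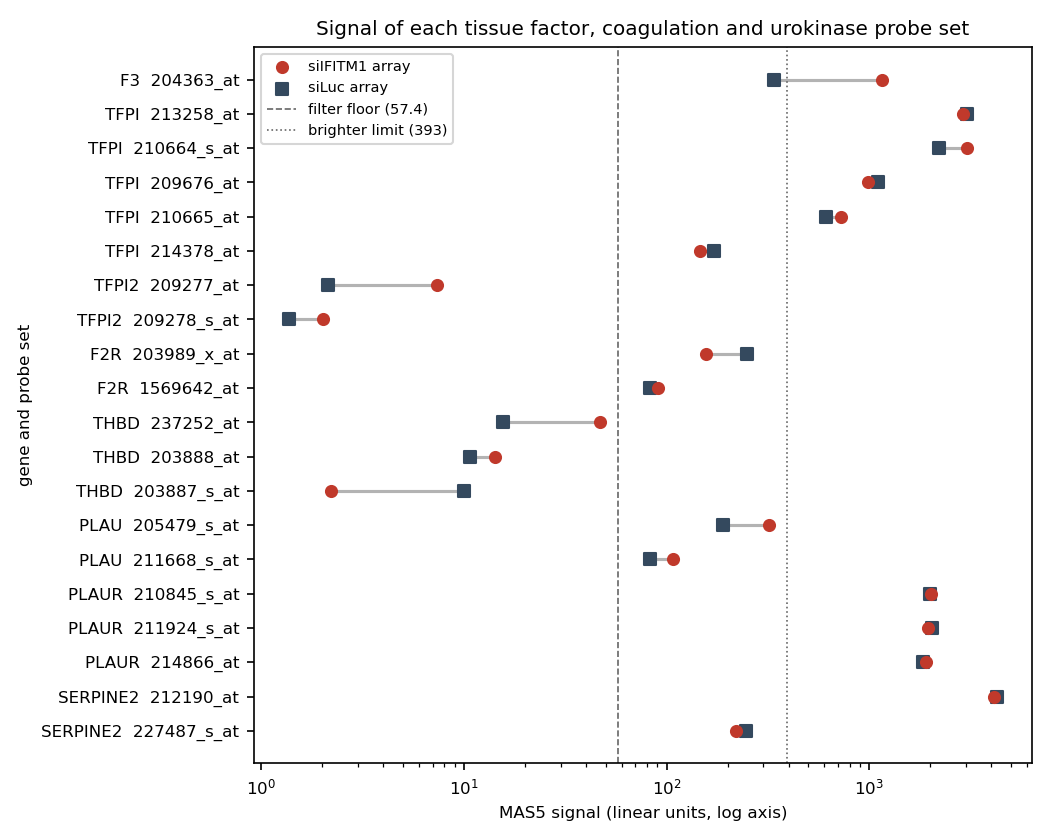
MAS5 signal (linear units, log axis) of the 20 probe sets of 8 genes on the siIFITM1 array (circles) and the siLuc array (squares), 1 array each, with the filter floor of 57.4 and the brighter limit of 393 as vertical lines. The F3 probe set lies at 1153 and 341, the 3 PLAUR probe sets nearly coincide, and all 5 probe sets of TFPI2 and THBD lie below the floor on both arrays.

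The bases before the start of F3 are shown because F3 was the only member past 2-fold and because its promoter is known to hold sites for SP1, EGR1, AP-1 and NF-kappaB. PLAU is set beside it as the other gene whose probe sets were all higher past the filter, and PLAUR as a gene of the same system whose signal was near equal on both arrays. Each line is the 250 bases before a transcription start in the RefSeq promoter table of GRCh38.p14, 5′ to 3′ on the gene's strand. Capitals mark motif matches on either strand. The F3 window is chr1:94541760-94542009 (minus strand), the PLAU window is chr10:73910882-73911131 (plus strand, the more downstream of 2 starts), and the PLAUR window is chr19:43670170-43670419 (minus strand).
F3: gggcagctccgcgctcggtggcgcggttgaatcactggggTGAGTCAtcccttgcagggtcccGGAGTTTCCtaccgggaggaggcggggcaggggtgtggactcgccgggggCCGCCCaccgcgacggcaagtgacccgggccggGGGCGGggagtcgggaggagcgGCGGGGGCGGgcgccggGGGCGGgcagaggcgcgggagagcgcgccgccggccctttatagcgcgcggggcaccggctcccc
PLAU: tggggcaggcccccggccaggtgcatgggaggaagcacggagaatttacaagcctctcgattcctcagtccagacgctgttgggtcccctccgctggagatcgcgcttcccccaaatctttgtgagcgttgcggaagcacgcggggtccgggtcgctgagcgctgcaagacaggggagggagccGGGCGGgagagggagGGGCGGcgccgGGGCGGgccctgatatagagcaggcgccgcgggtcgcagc
PLAUR: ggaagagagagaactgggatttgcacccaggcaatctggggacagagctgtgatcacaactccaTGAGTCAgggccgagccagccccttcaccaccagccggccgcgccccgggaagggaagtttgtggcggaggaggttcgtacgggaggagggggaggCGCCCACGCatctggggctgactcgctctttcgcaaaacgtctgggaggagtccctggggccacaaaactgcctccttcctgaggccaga

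The F3 window held 4 matches to GGGCGG, the SP1 letters, and 1 each to GCGNGGGCG (EGR1), TGAGTCA (AP-1) and GGAGTTTCC. The last is the NF-kappaB-like site known from this promoter, so finding it there is no result. The EGR1 match, 82 to 74 bases before the start, overlapped the SP1 match at 78 to 73 bases. The AP-1 match lay 210 to 204 bases and the NF-kappaB-like match 187 to 179 bases before the start. The PLAU window held 3 SP1 matches and none of the others, and the window of its more upstream start held no match. The PLAUR window held 1 AP-1 match, 186 to 180 bases before the start, and 1 EGR1 match on the opposite strand.

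Among the 35116 windows of the same length in the table, GGGCGG was present in 42.6%, GCGNGGGCG in 8.41%, TGAGTCA in 4.2% and GGAGTTTCC in 0.424%. F3 and PLAUR both held the AP-1 and EGR1 letters. Their log2 ratios were 1.76 and 0.02, and whether the matches had a part in either was not tested. TGACGTCA (CRE), TTCCNGGAA (STAT) and, on the gene's strand, TATAAA had no match in these windows. They were present in 1.65%, 0.968% and 6.8% of all windows in that order. A pair of longer NF-kappaB sites had no match either, and all windows held them in 0.179% and 0.142% of cases. The table had entries for 7 of the 9 genes. Of those not shown, TFPI2 held 2 SP1 matches and 1 EGR1 match, and F2RL1 held 2 SP1 matches. The windows of SERPINE2 held SP1 matches only, and the TFPI window held no match. A match describes letters and not a bound site.

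**Figure D2:**
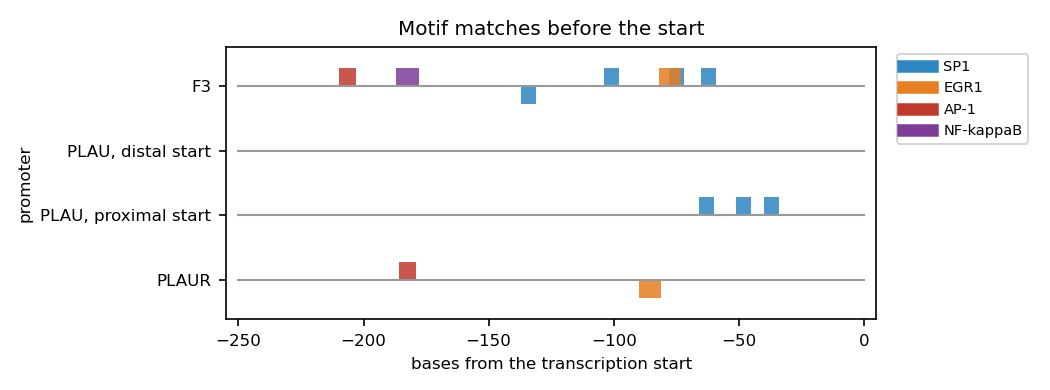
Positions of motif matches in the 250 bases before the start of F3, both starts of PLAU, and PLAUR, with the distance from the start in bases on the horizontal axis. Boxes above a line are on the gene's strand and boxes below it on the opposite strand. F3 holds 7 matches of 4 kinds, and the more upstream (distal) PLAU start holds none.

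Transcription factors of the SP1, EGR1, AP-1 and NF-kappaB families were listed as a group of 12, and all 12 passed the filter. They were listed by family, and not each is known to act on the F3 promoter. Of these, 9 had a ratio above 0 and 3 below, with a median of 0.09, against -0.02 over all genes past the filter, of which 47.4% were above 0. None was 2-fold apart at its representing probe set. FOSB, a dimmer gene, had the largest ratio, with signals of 447 with siIFITM1 and 305 with siLuc (log2 ratio 0.55). Among the brighter ones, FOSL1, an AP-1 subunit, had signals of 713 with siIFITM1 and 497 with siLuc (log2 ratio 0.52). FOSL2, a relative of it, had 1381 and 980 in the same order (0.49), and 4 of its 5 probe sets past the filter were above 0. These 5 ran from -0.21 to 1.175, and the highest had a siLuc signal of 47.7, below the floor. EGR1, a zinc finger factor, had 4666 with siIFITM1 and 3678 with siLuc (0.34), and its 3 probe sets ranged from 0.07 to 0.48. FOS, the founding AP-1 member, was lower, at 3287 with siIFITM1 and 4021 with siLuc (-0.29). Whether these factors had a part in the F3 signal was not tested.

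Of the inhibitors of tissue factor, TFPI was read by 5 probe sets, and these did not share a direction. Probe set 213258_at, which represented the gene, had 2914 with siIFITM1 and 3055 with siLuc (log2 ratio -0.07). Probe set 210664_s_at had 3030 with siIFITM1 and 2215 with siLuc (0.45). Probe set 210665_at, designed from the same source sequence, had 729 with siIFITM1 and 610 with siLuc (0.26). These were the higher probe sets of TFPI. Probe set 209676_at had 985 with siIFITM1 and 1108 with siLuc (-0.17), and the dimmer 214378_at had 145 and 171 in the same order (-0.23). The spread over the 5 probe sets, an SD of 0.294 about a mean of 0.05, was larger than the brighter yardstick of 0.193. TFPI is spliced into alpha and beta forms with different 3′ ends, and the annotation used here does not say which form each probe set reads. The representing ratio had the sign opposite to the mean.

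TFPI2, a related Kunitz-type inhibitor of plasmin and other serine proteases, was below the floor on both arrays. Its probe set 209277_at had 7.35 with siIFITM1 and 2.13 with siLuc, and 209278_s_at had 2.01 and 1.37 in the same order. Ratios at this level are not read here, since all of these signals lay under the floor. The floor is a chosen filter and not a detection limit of the array, so whether TFPI2 changed cannot be said.

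Among the receptors and cofactors of thrombin, F2R was read by a pair of dimmer probe sets that disagreed. Probe set 203989_x_at had 157 with siIFITM1 and 251 with siLuc (log2 ratio -0.68), while 1569642_at had 90.9 with siIFITM1 and 82.8 with siLuc (0.13). They lay 0.810 apart on the log2 scale. The ID ending of the first marks probes shared with other transcripts. No common direction for F2R can be given.

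THBD had 3 probe sets, all below the floor on both arrays. Probe set 237252_at had 46.9 with siIFITM1 and 15.5 with siLuc, 203888_at had 14.3 and 10.7, and 203887_s_at had 2.20 and 9.97. The last was lower with siIFITM1 and the others higher. As with TFPI2, no fold is read from these signals. The other thrombin receptors, F2RL2 (PAR3) and F2RL3 (PAR4), were below the floor too, with highest signals of 6.89 and 6.97 with siIFITM1 and 6.46 and 10.5 with siLuc.

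In the urokinase system, PLAU was higher at both of its probe sets. Probe set 205479_s_at had 321 with siIFITM1 and 189 with siLuc, a 1.69-fold higher signal and a log2 ratio of 0.76. Probe set 211668_s_at had 108 with siIFITM1 and 83.0 with siLuc (0.38). Both were dimmer. The larger ratio was above the dimmer yardstick of 0.496 and the smaller was below it, and PLAU ranked 210 from the top among 4432 dimmer genes, of which 2.48% were at least 2-fold higher and 5.39% at least 2-fold lower. Both IDs carry the ending that marks shared probes.

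PLAUR was near equal on both arrays at each of its 3 probe sets. They had 2021 with siIFITM1 and 1987 with siLuc (210845_s_at), 1947 and 2033 (211924_s_at), and 1906 and 1850 (214866_at). Their log2 ratios ran from -0.06 to 0.04, with an SD of 0.0563 between them, inside the brighter yardstick. Of the members with several probe sets past the filter, PLAUR had the narrowest range, 0.105 against 0.118 for SERPINE2. Set beside it, the ratios of its ligand PLAU were 0.38 and 0.76.

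SERPINE2 was lower by less than the yardstick at both probe sets. Probe set 212190_at had 4116 with siIFITM1 and 4254 with siLuc (log2 ratio -0.05), and the dimmer 227487_s_at had 221 with siIFITM1 and 248 with siLuc (-0.17).

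**Figure D3:**
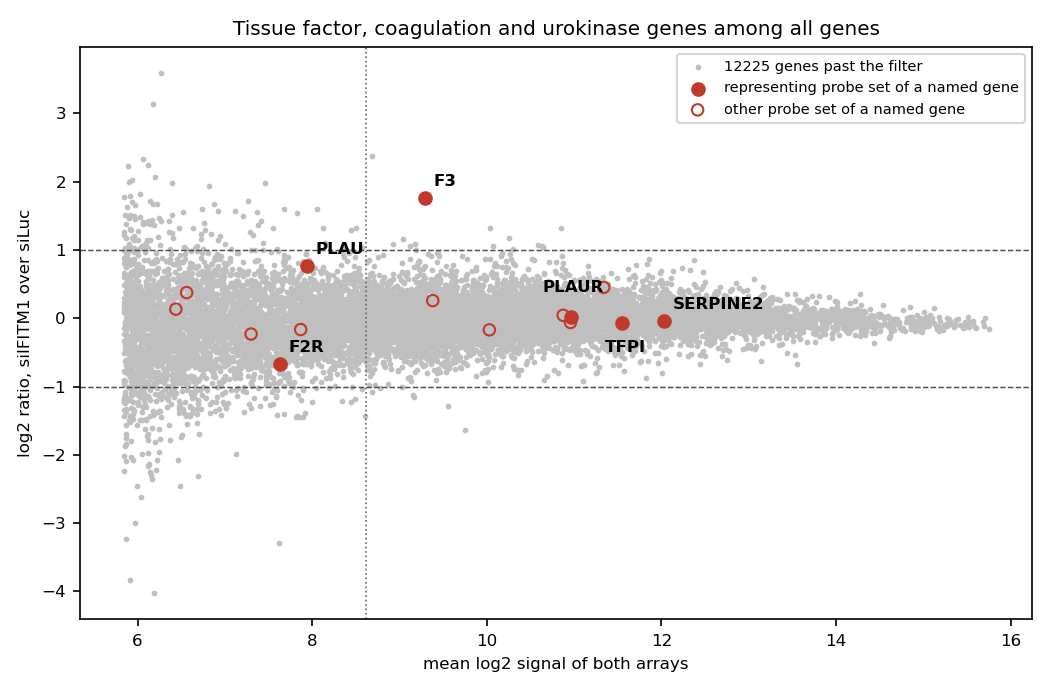
Log2 ratio of siIFITM1 over siLuc against mean log2 signal for the 12225 genes past the filter (grey, 1 representing probe set a gene) and for the 15 probe sets past the filter of F3, TFPI, F2R, PLAU, PLAUR and SERPINE2 (filled where representing, open otherwise). Dashed lines mark 2-fold and the dotted line the brighter limit. F3 lies at 1.76. It is past the brighter limit by its mean signal, although its siLuc signal of 341 is not. PLAU at 0.76 and F2R at -0.68 lie in the wider spread of dimmer genes.

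Of the 15 member probe sets past the filter, 8 were above 0 and 7 below, and 1 was at least 2-fold higher and 0 were at least 2-fold lower, against 1.34% and 2.06% of all probe sets past the filter. Of the 6 members past the filter, 3 were above 0 and 3 below by their representing probe set, with a median of -0.01, against -0.02 over all genes. The group as a whole thus had no common direction.

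The rest of the coagulation cascade was measured by a few genes. Of 17 clotting factors and fibrinogen genes, 4 passed the filter, 1 above 0 and 3 below, with a median of -0.18 and none 2-fold apart. F5, the cofactor of factor Xa, had 850 with siIFITM1 and 1251 with siLuc (log2 ratio -0.56), but its other 2 probe sets past the filter had -0.27 and 0.46. F12, the first protease of the contact pathway, had 1381 with siIFITM1 and 1534 with siLuc (-0.15), and its other probe set had 0.62. F7, the ligand of tissue factor, had 142 with siIFITM1 and 139 with siLuc (0.04), a dimmer gene, named here as the partner of F3 after its value was seen.

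Of 13 genes for anticoagulant proteins and the vitamin K cycle, 8 passed the filter, 4 above 0 and 4 below, with a median of -0.03 and none 2-fold apart. PROCR, the endothelial protein C receptor, had 1804 with siIFITM1 and 2180 with siLuc (-0.27). ANXA5, which binds phosphatidylserine, was at -0.19, GGCX, the vitamin K-dependent carboxylase, at -0.11, and PROS1 (protein S) at -0.07. Of these 4, only PROCR exceeded the brighter yardstick, and 3 of the 5 GGCX probe sets past the filter were above 0.

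Of 15 other genes of plasminogen activation listed, 13 had a probe set here and 10 passed the filter, 3 above 0 and 7 below, with a median of -0.04. None was 2-fold apart. The plasminogen receptors PLGRKT (-0.17), ENO1 (-0.06) and ANXA2 (-0.04) were near equal on both arrays at their representing probe sets, but other probe sets of ENO1 and ANXA2 differed. One of ENO1 had 1.06, with a siLuc signal of 48.4 that is below the floor, and a brighter one of ANXA2 had 511 with siIFITM1 and 864 with siLuc (-0.76). LRPAP1, a chaperone of the receptors that clear urokinase complexes, was at 0.15. The dimmer genes that passed lay further from 0: LRP1 (-0.80), SERPINF2 (-0.54), PLG (0.47) and SERPINB8 (0.41). PLAT, the tissue plasminogen activator, was below the floor on both arrays, at 34.2 with siIFITM1 and 9.66 with siLuc, and was named as the other activator after its value was seen.

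Of 10 genes for other thrombin receptors and their G proteins, 7 passed the filter, 3 above 0 and 4 below, with a median of -0.04. GNAI2, an inhibitory G protein subunit, had 856 with siIFITM1 and 1068 with siLuc (-0.32). GNA13, another G protein subunit, had 3293 and 2745 in the same order (0.26), and its 3 probe sets ran from -0.12 to 0.33. ARRB1, a beta-arrestin, was at 0.19, but its 7 probe sets past the filter ran from -0.53 to 0.45, with 4 above 0. GNA12 was at 0.10, and its other probe set was at 0.77. Of 13 epithelial serine proteases and Kunitz inhibitors, 11 passed, 5 above 0 and 6 below, with a median of -0.01. PRSS8 (prostasin) had 2334 with siIFITM1 and 1802 with siLuc (0.37), and ST14 (matriptase), its partner protease, had 0.19. TMPRSS4 was at -0.31 and KLK11 at -0.17. In these lists, too, none was 2-fold apart.

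**Figure D4:**
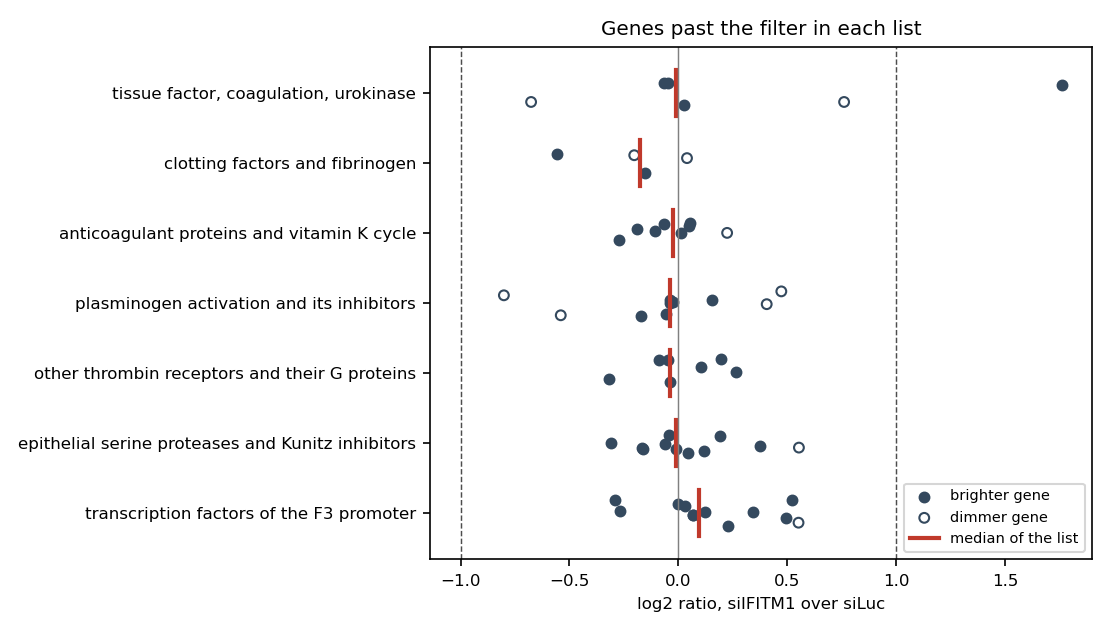
Log2 ratio of siIFITM1 over siLuc for each gene past the filter in 7 lists, with brighter genes filled, dimmer genes open and the median of each list as a vertical bar. F3 at 1.76 is the only point beyond the dashed 2-fold lines, and the medians lie between -0.18 and 0.09.

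Each ratio was recomputed under other processing choices. F3 lay between 1.67 and 1.78 under the 4 that could move it, which were the changes of scaling and trend and the pseudocount, and PLAU lay between 0.57 and 0.81 under the 5 that could move it. F2R was -0.68 as represented and 0.13 without the probe sets whose ID ending marks shared probes. PLAU had no value under that choice, since both of its probe sets carry such an ending. The ratios of TFPI2 and THBD became 0 once signals were raised to the floor, by construction, since all their signals lay under it.

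**Figure D5:**
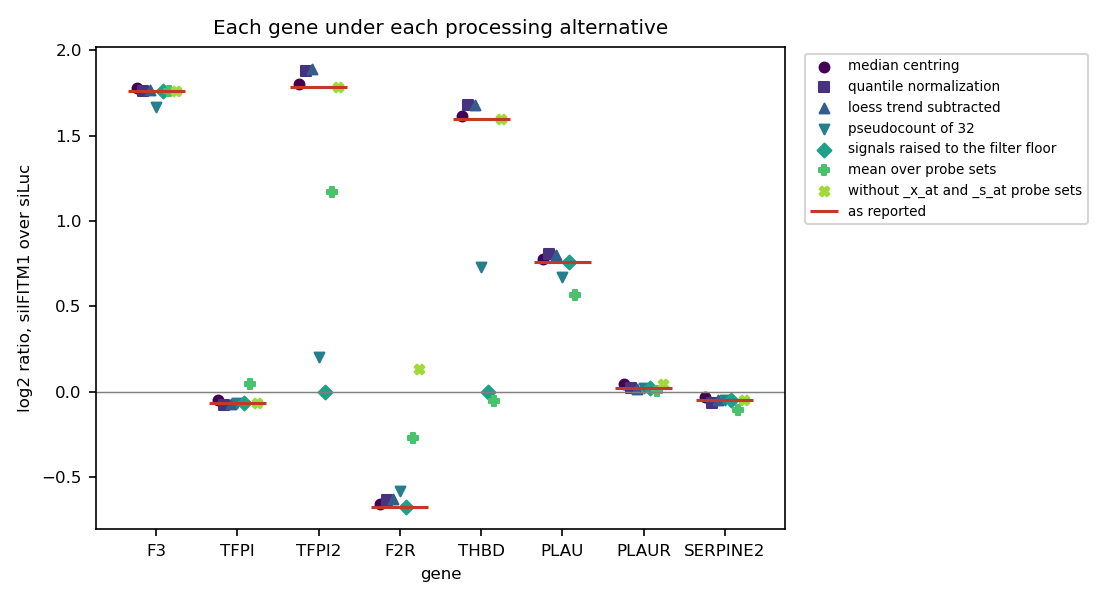
Log2 ratio of siIFITM1 over siLuc for each of 8 genes as reported (horizontal bar, representing probe set) and under each processing alternative (symbols). PLAU has no symbol for the omission of probe sets ending in _x_at or _s_at. F3 stays between 1.67 and 1.78 and PLAU between 0.57 and 0.81, while F2R spans -0.68 to 0.13 and the genes below the floor, TFPI2 and THBD, span 0 to 1.89 and -0.05 to 1.68.

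The genes with a ratio most like that of F3 were sought among the brighter genes by the difference of log2 ratio over the 2 arrays. They were YOD1, a deubiquitinase (1.33), CAV2, a caveolin (1.32), C4BPB, a chain of a complement inhibitor (1.17), NUDT16L1 (1.17) and CACNG4 (2.38). The nearest, YOD1, was 0.434 from F3. All 3 CAV2 probe sets were higher, from 0.75 to 1.76, and the 2 YOD1 probe sets had 0.52 and 1.33. With a single pair of arrays, likeness is only a similar ratio.

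Tissue factor, thrombomodulin and urokinase can also be made by endothelial cells and monocytes, so markers of other cells were measured. Of 8 endothelial markers, 3 passed the filter, none was brighter and 3 were below 0, with a summed signal of 680 with siIFITM1 and 718 with siLuc. CDH5 had 8.01 with siIFITM1 and 14.0 with siLuc, and VWF had 51.7 with siIFITM1 and 11.8 with siLuc. These 2 lay below the floor, which is not a detection limit, and no direction is read from them. Of 8 leukocyte markers, 7 had a probe set here and 4 passed, all below 0, with a summed signal of 21167 with siIFITM1 and 24708 with siLuc, most of it LYZ, lysozyme, which gut epithelium also makes. PTPRC (CD45) had 49.3 with siIFITM1 and 13.7 with siLuc, below the floor. Of 6 platelet markers 5 passed, 3 above 0 and 2 below, with summed signals of 466 with siIFITM1 and 420 with siLuc. Of 8 fibroblast markers 3 passed, 1 above 0 and 2 below, with 776 and 751 in the same order. None of the platelet or fibroblast markers was brighter. LUM of the fibroblast list had 386 with siIFITM1 and 132 with siLuc. ITGA2B of the platelet list had 107 with siIFITM1 and 31.1 with siLuc, the siLuc signal being below the floor, so no fold is read from it. Both were named after their values were seen. Any part of these cells in the values above was not tested.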

How the data were processed

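RNA of HT-29 cells was column purified, amplified and labelled with biotin, per the labels' protocols, and read on single-colour Affymetrix arrays. Per the submitters' processing notes, MAS5 made 1 signal per probe set. The deposited values are intensities on a linear scale. Their mean after removing 2% at each end was 500.1 on both arrays, so the authors had scaled them to a common level. The 2 arrays, 1 for each siRNA, limit the precision of every value, and detection calls were not used here.

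Log2 ratios were taken from the deposited intensities with no further scaling. Gene symbols were brought up to date by Entrez number against RefSeq genes of GRCh38.p14, which matched 41037 of 41091 probe sets (99.9%). The genes, lists and rules were chosen with earlier results of these data known. Each list names up to 4 brighter genes of largest absolute ratio and any gene past 2-fold. The calculation was tested on simulated data. Alternatives were median centring, quantile normalization, subtraction of a loess trend (span 0.3), a pseudocount of 32, signals raised to the floor, no or a stricter filter, the mean over probe sets, omission of probe sets ending in _x_at or _s_at, and thresholds of 1.5-fold and 3-fold. Python 3.11.15, numpy 2.4.6, pandas 2.3.3, statsmodels 0.14.6 and matplotlib 3.10.9 were used.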

Additional observations from a re-analysis of the deposited data

How the results depend on the processing

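F3 stayed at least 2-fold higher under the 4 alternatives that could move its ratio, from 1.67 with a pseudocount of 32 to 1.78 with median centring. The other 3 return the same value by construction, since F3 has 1 probe set, without shared probes and above the floor on both arrays. In addition, PLAU stayed above 0 under the 5 that could move it, from 0.57 to 0.81. PLAU had no value without probe sets ending in _x_at or _s_at, since both of its probe sets have such an ending. A value counted as moved when it shifted by more than the SD between probe sets of one gene, or a count when it shifted by over 1.5 times. F2R was 0.13 without probe sets ending in _x_at or _s_at. TFPI was 0.05 as a mean over probe sets. THBD, 1.60 at its representing probe set, was -0.0535 as a mean over probe sets. Both THBD and TFPI2 were 0 by construction with signals raised to the floor, since all their signals lay under it. TFPI2, 1.79 as computed, was 0.205 with a pseudocount and 1.17 as a mean, and THBD was 0.732 with a pseudocount. The members at least 2-fold higher numbered 1, against 3 with no filter. At 1.5-fold, 2 were higher and 1 lower. Over all genes, 124 were 2-fold higher and 246 lower. The counts were 55 and 89 with a pseudocount, 1778 and 2172 with no filter, 14 and 7 with the stricter filter, 276 and 438 as means over probe sets, 511 and 897 at 1.5-fold, and 27 and 44 at 3-fold. With signals raised to the floor, 81 were higher. The medians of the 6 other lists moved by less than 0.193, but the sign changed under at least 1 alternative for plasminogen activation (0.0506 after quantile normalization), thrombin receptors (0.132 as means over probe sets) and epithelial proteases (0.118 without shared probes). The filters changed which genes were counted, with 12225 genes as reported, 19775 with no filter and 7793 with the stricter filter. The cause of the shifts in counts and medians was not tested. Signals under the floor limit TFPI2 and THBD. No paired analysis was possible because each siRNA had 1 array.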
